A study of Mus musculus with 12 samples.

Results

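The regions described here are 368 p53 peaks of K17KO mouse back skin that lie between genes. A peak was taken when its midpoint lay outside every protein-coding gene of the RefSeq gene table and more than 5 kb from every protein-coding gene start and end. They are 368 of the 1101 peaks of the K17KO p53 list (33.4%, 95% interval 30.6 to 36.3) and of 9474 peaks in the 3 lists analysed. Of the remaining K17KO peaks, 417 lay within 5 kb of a gene end, 302 lay deeper inside genes, and 14 lay on scaffolds that the gene table does not hold and could not be placed.

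Chromatin immunoprecipitation followed by sequencing was applied to back skin from mice 8 to 10 weeks old, under a protocol of 5 Gy of ionizing radiation, which the labels give for all 12 samples, T0 included. The p53 antibody was used on K17KO skin at T0 and 6 h and on wild-type (WT) skin at T0 and 6 h, and an antibody against trimethylated lysine 4 of histone H3 (H3K4me3) on WT skin at T0 and 6 h, with 2 samples in each of the 6 groups. The labels used here do not spell out K17KO or tie a sample to an animal. No list names a library or a time point, so T0 and 6 h cannot be told apart, no value has a replicate error, and every interval and p-value below covers the counting of peaks only. The list called WT p53 here names no genotype, and WT was inferred for it. Each fold is the authors' enrichment of a peak over its local background, and values such as 9 fragments over 1.11 give the fragments at the peak and that background, both recovered from the authors' fold and p. A peak list cannot show whether the targeted gene was lost. As a check of the tissue, 17 of 66 epidermal and hair genes (25.8%) had an H3K4me3 peak within 5 kb of an end, as did 21.5% of all coding genes, so the count does not set the tissue apart. Among the 17 were the keratin genes Krt1 (4.84-fold), Krt15 (1.50) and Krt10 (1.50), while the nearest H3K4me3 peaks to the basal keratin genes Krt5 and Krt14 lay 133 and 67.7 kb away.

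p53 is a transcription factor that is stabilised by DNA damage and binds DNA as a tetramer at paired copies of a short consensus sequence. Many of its sites in other systems lie far from the starts of protein-coding genes, in distal regulatory elements or at the starts of noncoding RNA genes. The best known of its noncoding targets is the microRNA gene Mir34a, whose product lowers the levels of proteins that drive the cell cycle. H3K4me3 marks the starts of active genes, noncoding ones included, so its presence at a site between genes can show a start that a list of coding genes leaves out.

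Some microRNAs whose genes lie within 20 kb of these peaks are shown with the seed, bases 2 to 8, in capitals, since the seed sets which messages a microRNA pairs with. The sequences are those of RefSeq for GRCm38.p6, written 5′ to 3′. In all, 11 of the 368 peaks lay within 20 kb of a microRNA gene and 2 within 5 kb, at Mir124a-3 (0.734 kb) and Mir6377 (4.91 kb). The same count over all K17KO peaks was not made, so these counts do not set the 368 apart. Among the 11, the 2 peaks near Mir101c had backgrounds of 291 and 335 fragments, and the peak near Mir6546 had 11.5. The Mir34a gene lay 19.3 kb from a peak and is shown because that peak was in all 3 lists. The clusters of Mir23a, 7.26 kb from a peak of 5.02-fold, and of Mirlet7a-1, 14.3 kb from a peak of 5.21-fold, were chosen after their values were seen. The let-7 members printed share the seed GAGGUAG, and the other microRNAs shown have seeds of their own.
mmu-miR-34a-5p: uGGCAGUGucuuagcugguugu
mmu-miR-34a-3p: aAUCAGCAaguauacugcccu
mmu-miR-6377: uCAUUUGUcuucgugucugcauc
mmu-miR-23a-3p: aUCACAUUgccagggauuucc
mmu-miR-27a-3p: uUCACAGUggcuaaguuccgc
mmu-miR-24-3p: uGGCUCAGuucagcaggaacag
mmu-let-7a-5p: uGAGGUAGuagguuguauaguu
mmu-let-7f-5p: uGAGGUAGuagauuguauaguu
mmu-let-7d-5p: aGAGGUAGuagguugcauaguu

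Of the 368 peaks, 2 covered part of an annotated promoter window (250 bases before to 50 after a gene start), both at long noncoding RNA (lncRNA) genes on chromosome 12. The stretch of each window that lies under the peak is shown because it is peak sequence that can be read from the reference tables. The letters CATG, the centre of many p53 sites and the same on both strands, are in capitals. The Gm35239 peak spanned chr12:52602836-52603291 and had 4.73-fold enrichment with 9 fragments over 1.11, and the Gm32723 peak spanned chr12:106094830-106095134 with 4.41-fold and 12 fragments over 1.95.
Gm35239, chr12:52602836-52603002, plus strand: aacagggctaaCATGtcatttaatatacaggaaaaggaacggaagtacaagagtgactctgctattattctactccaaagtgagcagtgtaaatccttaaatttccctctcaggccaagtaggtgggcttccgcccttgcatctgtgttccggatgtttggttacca
Gm32723, chr12:106094830-106094898, plus strand: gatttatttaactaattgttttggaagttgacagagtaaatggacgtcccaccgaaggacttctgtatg

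CATG occurred 1 time under the Gm35239 peak and was not found in the 69 bases under the Gm32723 peak, whose full window held 1. Of 32851 promoter windows of 300 bases in the table, 61.1% held CATG. The p53 decamer consensus, searched on both strands, was in neither full window, and 8.36% of all windows held it. The rest of each peak, and the other 366 peaks, were not searched, since their sequence is not in the tables used here.

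The site before Mir34a was found in all 3 lists. The K17KO p53 peak spanned chr4:150048931-150049336, inside the lncRNA gene Gm13067, between the coding genes H6pd (40.1 kb away) and Gpr157 (38.4 kb away). Its midpoint lay 19.3 kb before the Mir34a hairpin (chr4:150068454-150068555, plus strand). It had 6.98-fold enrichment with 26 fragments over a background of 2.87 and a −log10 p of 16.9, the third highest −log10 p of the 368. The WT p53 list had a peak there of 10.2-fold with 31 fragments over 2.14, and its summit lay 10 bp from the K17KO summit. The folds come from separate lists and were not compared.

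The same site carried H3K4me3 in the WT list. A peak of 952 bp with 2.13-fold enrichment, 194 fragments over 90.7, covered all 406 bp of the K17KO p53 peak, and its summit lay 12 bp from the p53 summit. A peak of 1.80-fold lay on one side and a peak of 3.22-fold on the other, all within 1.2 kb of the p53 summit. Of all 1101 K17KO peaks, 4 overlapped both other lists, and this was the only one of the 368 that did. The ends of Gm13067 lay 19.7 and 9.58 kb from the midpoint of the p53 peak, and the gene table gives no strand for it.

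**Figure D1:**
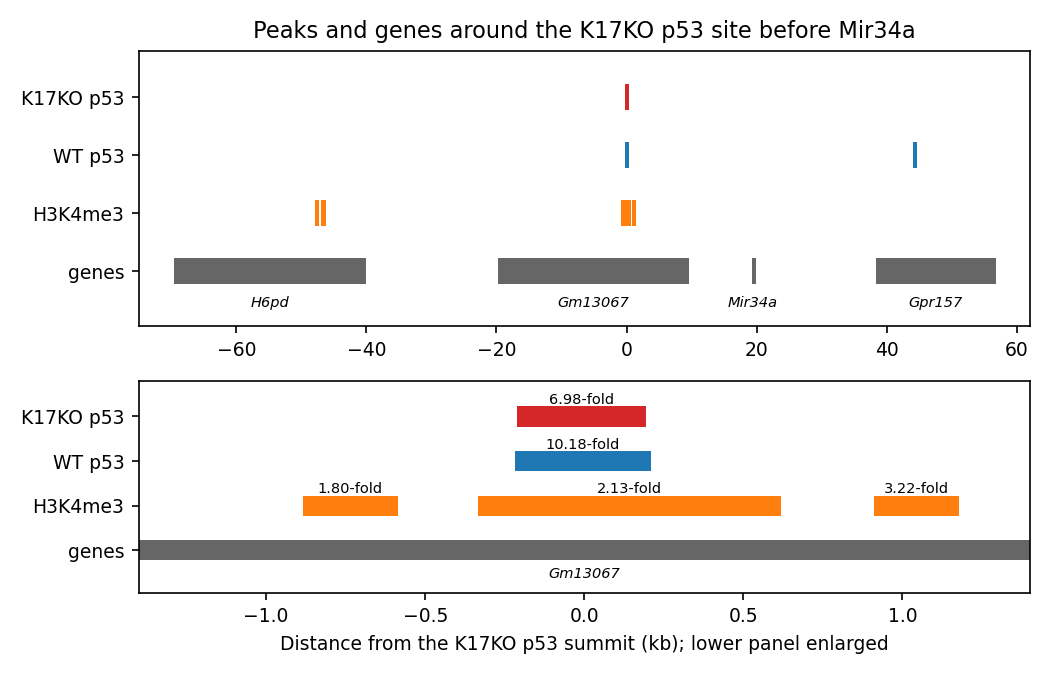
Peaks of the 3 lists and genes around the K17KO p53 site before Mir34a, by distance in kb from the K17KO p53 summit, with the centre enlarged in the lower panel and the authors' fold written above each peak. Features narrower than the line are drawn at a minimum width; the K17KO and WT p53 peaks and the central H3K4me3 peak coincide.

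The other peaks shared with the WT p53 list had fewer fragments or a high background. In all, 4 of the 368 peaks overlapped a WT p53 peak by at least 1 bp (1.09%, interval 0.297 to 2.76), against 0.817% of all K17KO peaks and 5 of the other 733, those on scaffolds included (0.682%). This difference did not pass (Fisher's exact p = 0.492, adjusted over 5 tests 0.492), with an odds ratio of 1.6. Beside the Mir34a site, these lay 9.44 kb from Pparg, which encodes a regulator of fat cell differentiation, 47.3 kb from the salivary gene Smgc, and 8.65 kb from Gm45871. The Pparg site had 12 K17KO fragments over 1.95 (4.41-fold) and only 6 WT fragments over 1.07 (3.38-fold, −log10 q of 0.656). At the Smgc site the K17KO background was 28.7 fragments (66 fragments, 2.26-fold) and at the Gm45871 site 20.1 (65 fragments, 3.13-fold). The WT peak at the Gm45871 site had 154 fragments over a background of 50.6. Its −log10 p of 31.4 was the highest of the WT p53 list, above the 25.7 of the WT peak at the Mir34a site. Without peaks of background over 10 fragments, a step chosen after seeing the data, 2 of 348 had a WT overlap and the direction turned (0.575% against 0.705%).

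Overlap with H3K4me3 was rare between genes. Of the 368 peaks, 5 overlapped an H3K4me3 peak (1.36%, interval 0.443 to 3.14), against 6.09% of all K17KO peaks. Beside the Mir34a site these lay at Mir124a-3, at the lncRNA gene Gm41853, inside the lncRNA gene Gm52861 and inside the receptor pseudogene Vmn2r-ps17. The other 733 K17KO peaks had 62 (8.46%), 60 of them among the 417 within 5 kb of a gene end (14.4%) and 2 among the 302 deep inside genes (0.662%). H3K4me3 is a mark of gene starts, and the choice of peaks leaves out the starts of coding genes, so the lower share than in the other 733 is a description of that choice and its test is not used.

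**Figure D2:**
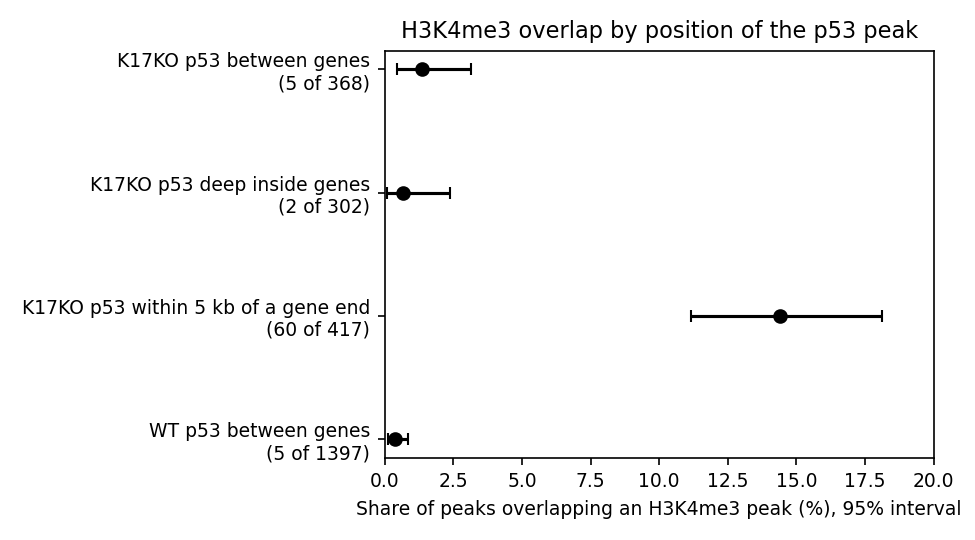
Share of p53 peaks that overlap an H3K4me3 peak, with exact 95% intervals, for 3 positions of K17KO peaks and for WT p53 peaks between genes. The 417 K17KO peaks near gene ends stand at 14.4%, and the other sets lie at or below 1.36%.

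Mir124a-3, the microRNA gene nearest to any of the 368 peaks, is a gene for miR-124, a microRNA known chiefly from neurons. The K17KO p53 peak spanned chr2:180893161-180893451, between the coding genes Bhlhe23 and Ythdf1 (11.1 kb away), the second an RNA methylation reader. It had 3.70-fold enrichment with 13 fragments over 2.78. The H3K4me3 peak of 2.71-fold, 50 fragments over 17.8, covered the p53 peak in full, and the summits lay 30 bp apart. The nearest WT p53 peak lay 253 kb away.

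The Gm41853 peak lay 9.24 kb from Scd2, which encodes a fatty acid desaturase, and rested on 7 fragments over 0.956 (4.09-fold). Its H3K4me3 partner had 2.31-fold enrichment. The Gm52861 and Vmn2r-ps17 peaks had p53 backgrounds of 27.8 and 11.5 fragments, and p53 folds of 1.98 and 2.33. The H3K4me3 partner of the Gm52861 peak had 430 fragments over a background of 259 (1.66-fold). WT p53 peaks between genes overlapped H3K4me3 in 5 of 1397 (0.358%), and the K17KO share was 1.0 points higher, which did not pass after adjustment (Fisher's exact p = 0.0383, adjusted p = 0.0638). The call changed with the settings, as given in the closing section. Peak widths differed between the lists, with medians between genes of 327 bp for K17KO and 216 bp for WT. What part width has in these overlaps was not tested.

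The typical peak between genes was small. The lowest number of fragments was 6, the median 10 and the highest 576, with 126 peaks on 6 to 9 fragments, 199 on 10 to 14, 18 on 15 to 20 and 25 on more. The median fold was 4.68 (quartiles 4.09 and 5.33), beside 4.60 (3.89 and 5.14) for the other K17KO peaks. The median background was 1.11 fragments beside 1.67, the median −log10 p 7.13 beside 6.84, and the median width 327 bp beside 340 bp. These are descriptions without a test, since peaks of 1 list are not replicates. The folds took few values, 142 distinct ones over the 368 peaks. A q-value of at most 0.01 was given for 276 of the 368 (75%) and for 73% of all K17KO peaks.

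The 12 peaks of highest fold lay between genes of very different kinds. On chromosome X, the peak of highest fold (7.90, from 22 fragments over 1.91) lay 502 kb from the testis gene Cypt14 and 1035 kb from Gria3, which encodes a glutamate receptor subunit. A peak of 7.20-fold lay between the olfactory receptor genes Olfr765 and Olfr767, and another between Atg10, an autophagy gene, and Ssbp2, each with 13 fragments over 0.945. Peaks of 7.16-fold lay between 1700008P02Rik and Pkia, a protein kinase A inhibitor gene, and between Dnah5 and Ctnnd2, each with 13 fragments over 0.956.

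Next came a peak between Has2, a hyaluronan synthase gene, and Slc22a22 (7.11-fold, 16 fragments). A peak 29.6 kb from the lncRNA gene Lncppara lay between the signalling gene Wnt7b and Ppara, a regulator of fatty acid oxidation (7.02-fold, 15 fragments), with an H3K4me3 peak 2.38 kb away. The Mir34a site followed. The last 4 lay between Cntnap5b and Cdh20, between Cnksr3 and Ulbp1, between Mpdz and Nfib, and within the transcribed pseudogene LOC108169009, at 6.59-fold to 6.69-fold. Of the 12, the Mir34a site alone overlapped a peak of another list, and 4 lay inside or within 5 kb of a noncoding gene.

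By −log10 p the order was different. The 6 highest were 1 peak near Mir101c (20.6), 1 near Gm15319 (17.6), the Mir34a site (16.9), the Cypt14 site (16.7) and 2 of the peaks near Gm40363 and Pdia4 (16.5 and 16.3). Of these, 4 had a background over 10 fragments. Only the Mir34a and Cypt14 sites were among the 6 highest by −log10 p and the 12 highest by fold.

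A background over 10 fragments was found for 20 of the 368 peaks (5.43%, interval 3.35 to 8.27), against 4% of all K17KO peaks. They came from 10 places, counting peaks within 1 Mb as 1 place. Their folds ran from 1.24 to 4.03 with a median of 2.23, while the other 348 ran from 2.89 to 7.90 with a median of 4.73. Their median −log10 p was nevertheless higher, at 10.2 against 7.06. What part repeated sequence has in these backgrounds was not tested.

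**Figure D3:**
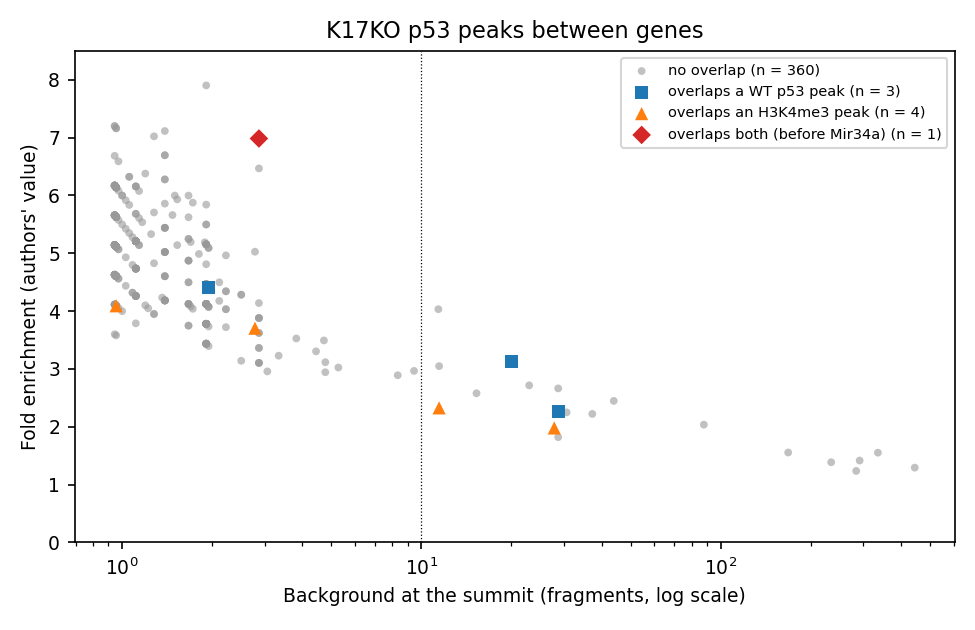
The authors' fold enrichment of each of the 368 peaks against the background recovered at its summit in fragments, on a log scale, with overlaps with the other lists marked and a dotted line at 10 fragments. The 20 peaks to the right of the line reach no fold above 4.03, and the Mir34a site stands at 6.98-fold over 2.87 fragments.

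The 3 highest backgrounds lay on chromosome 9 in a stretch where no coding gene precedes the peaks and the nearest, Alkbh8, lies over 300 kb away. The peaks had 576 fragments over 445 (1.29-fold), 521 over 335 (1.55-fold) and 413 over 291 (1.42-fold). Next were 2 peaks on chromosome 17 beside the 18S ribosomal RNA pseudogene Rn18s-rs5 and inside the lncRNA gene AY036118, with 351 fragments over 284 (1.24-fold) and 325 over 234 (1.39-fold). A peak inside the lncRNA gene 2700054A10Rik had 262 over 168 (1.55-fold).

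Peaks within 10 kb of one another were few, with 11 neighbouring pairs, and in 8 of these both peaks had a background over 10 fragments. The longest run held 6 peaks on chromosome 6 between the coding genes Gm40363 and Pdia4, which encodes a protein disulphide isomerase. The first lay inside the lncRNA gene Gm52861 and the last 9.33 kb from Rny3, a gene for a Y RNA, a small RNA of the Ro particle. Their fragments in order were 56, 109, 70, 64, 78 and 49, and their folds 1.98, 2.45, 2.25, 2.72, 2.66 and 4.03. The WT list had 1 peak within the run, of 2.07-fold with 38 fragments over 17.9, which overlapped none of the 6.

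**Figure D4:**
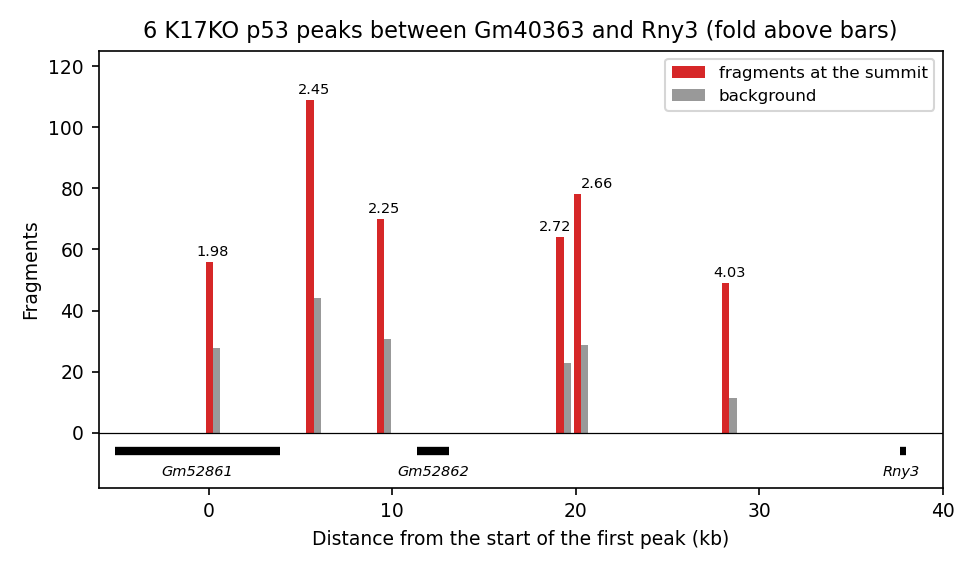
Fragments at the summit (red) and background (grey) of the 6 K17KO p53 peaks on chromosome 6, by distance in kb from the start of the first, with the fold above each pair of bars and noncoding genes below. The backgrounds run from 11.4 to 44.0 fragments, and the last peak has the fewest fragments and the highest fold.

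The pairs with low background in both peaks were 2. One lay 5.70 kb apart nearest Tmem220, with folds of 5.21 and 4.73. The other lay 9.68 kb apart nearest Arhgap5, with folds of 6.14 and 4.73, and its second peak is the one at the Gm35239 start shown above. In the last pair, nearest the galanin receptor gene Galr1, the backgrounds were 9.45 and 28.7 fragments.

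Of the 368 peaks, 116 (31.5%, interval 26.8 to 36.5) had their midpoint inside or within 5 kb of a noncoding gene of the table, against 22.4% of all placed K17KO peaks. Of the WT p53 peaks between genes 401 of 1397 did (28.7%), and by Fisher's exact test the difference of 2.82 points did not pass (p = 0.303, adjusted p = 0.379, odds ratio 1.14). The nearest such gene was an lncRNA for 77 peaks, 52 of them inside the gene, and a pseudogene for 29. Small nucleolar RNA genes accounted for 3, and microRNA, transfer RNA and small nuclear RNA genes for 1 each. The table holds 28056 noncoding genes beside 21887 coding ones. Peaks inside or within 5 kb of coding genes are left out by the choice of peaks. The share of 31.5% beside 22.4% is therefore not read as a trait of these peaks.

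Within 1 kb of a noncoding gene end, microRNAs aside, lay 43 peaks. The same count was not made for all K17KO peaks or for WT p53 peaks. These 43 are therefore not read as a trait of peaks between genes. The 10 of highest fold were led by those at LOC108169009 (6.59-fold), the lncRNA gene Gm32406 (6.32-fold, 12 fragments over 1.06) and the small nucleolar RNA gene Gm25846 (6.14-fold, 11 over 0.956). The others lay at the pseudogenes Gm14094, Gm8918, Gm4775, Gm8877, Gm5808 and Gm12579 and the small nucleolar RNA gene Gm25094, from 5.21-fold to 5.68-fold. The peak at the lncRNA gene Gm40307 tied with the one at Gm12579 for the tenth place, at 5.21-fold with 10 fragments over 1.11 in each. Their nearest coding genes ranged from Trim52, 5.07 kb away, to Magi1, 341 kb away. None of these 10 overlapped a peak of the other lists. Pseudogenes can share reads with their parent genes, so the values at these are uncertain.

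Distances to coding genes spanned the whole range above the limit. The lowest was 5.07 kb, the median 52.7 kb and the highest 1871 kb. In all 90 peaks lay 5 to 20 kb from the nearest coding gene (24.5%), 89 lay 20 to 50 kb away, 56 lay 50 to 100 kb away, 90 lay 100 to 500 kb away (24.5%, interval 20.2 to 29.2) and 43 lay over 500 kb away (11.7%, interval 8.59 to 15.4). Of the 1397 WT p53 peaks between genes 31.6% lay 100 to 500 kb away and 7.37% over 500 kb away, and these differences were not tested.

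**Figure D5:**
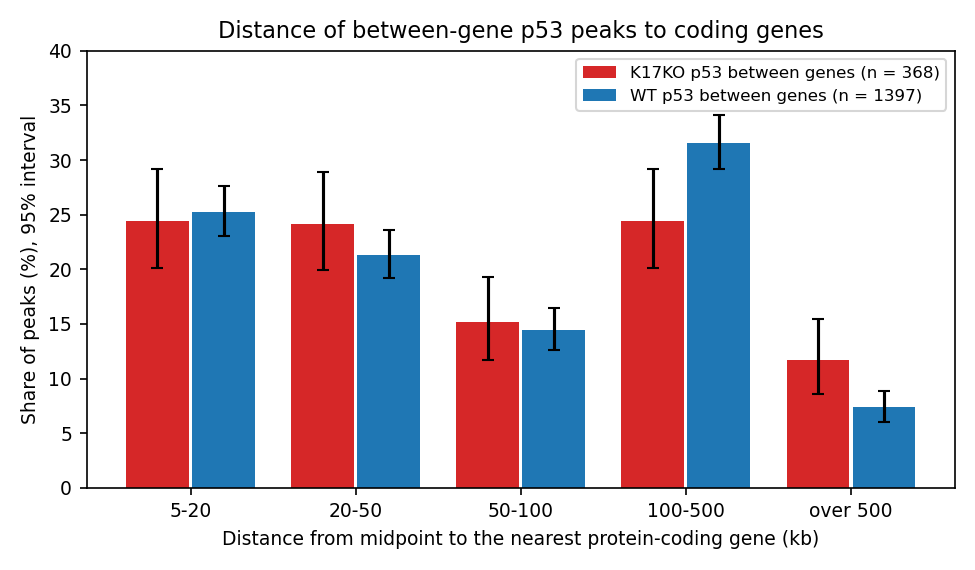
Share of p53 peaks between genes in each class of distance to the nearest protein-coding gene, for K17KO (n = 368) and WT (n = 1397), with exact 95% intervals. The lists stand at 24.5% and 31.6% from 100 to 500 kb, and at 11.7% and 7.37% beyond.

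The 3 peaks farthest from a coding gene were 1871 kb from Cdh20, a cadherin gene (6.17-fold, 11 fragments), 1808 kb from Pcdh20, a protocadherin gene (5.66-fold, 10 fragments), and 1723 kb from Stim2, a calcium sensor gene, with Pcdh7 on the other side (4.60-fold, 10 fragments). At the limit itself, the first peaks included were 5.07 kb from Trim52 (5.66-fold) and 5.19 kb from Tgfbr3 (3.78-fold). The last ones left out were 4.93 kb from Olfr504 (4.60-fold) and 4.92 kb from Pacsin2 (5.43-fold).

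Every chromosome from 1 to 19, X and Y held peaks between genes. Chromosome 1 had the most, 31, and chromosomes X and Y had 4 each. Per Mb that meets the same rule, chromosomes 1 to 19 had 0.269 peaks, from 0.136 on chromosome 7 to 0.366 on chromosome 6, where 6 of the 29 peaks are those of the run described above. Chromosome X had 0.0341 per Mb. The WT list was low there too, with 0.137 per Mb beside 1.03 on chromosomes 1 to 19. The 4 peaks on chromosome Y had 8 to 11 fragments.

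Few known p53 target genes had one of these peaks nearby, and few coding genes of any kind did. Of 68 target genes matched in the table, 1 had a peak within 20 kb (1.47%), against 0.457% of all coding genes. It was Ercc5, an excision repair gene (17.6 kb, 4.47-fold, 12 fragments over 1.91), but Mettl21e lay nearer to that peak, at 5.23 kb. Of the target genes 3 had a peak within 50 kb (4.41%), against 1.27% of all coding genes. The others were Cd82, a tetraspanin gene (42.4 kb, 4.87-fold), and Notch1, a receptor gene (48.2 kb, 3.75-fold). The Notch1 peak lay inside the lncRNA gene Gm36171 and nearer to Egfl7 (29.1 kb). Only Cd82 was the nearest coding gene of its peak. Of 27 noncoding p53 targets matched, Mir34a alone had a peak within 50 kb (3.70%), and within 20 kb, against 2.35% and 1.21% of all noncoding genes.

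Of 43 matched genes of DNA damage signalling and repair, Parp1, which senses strand breaks, alone had a peak within 50 kb (2.33%; 11.0 kb, 4.34-fold, 13 fragments over 2.22). Of 66 epidermal and hair genes none had one within 20 kb and Klf4, a regulator of epidermal barrier formation, alone had one within 50 kb (1.52%; 23.8 kb, 5.83-fold, 11 fragments over 1.06). Of all coding genes 1.27% had a peak within 50 kb and 0.457% within 20 kb, and no test was made on these counts. By family, the nearest coding gene was an olfactory receptor (Olfr) gene for 5 peaks (1.36%, WT 1.43%), a vomeronasal receptor (Vmn) gene for 2 (0.543%, WT 2.43%), a Zfp gene for 8 (2.17%, WT 1.93%) and a predicted gene with a Gm symbol for 27 (7.34%, WT 6.80%).

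Whether the p53 lists placed the same share of their peaks between genes was tested directly. Of the peaks on placed chromosomes 368 of 1087 in the K17KO list (33.9%, interval 31.0 to 36.8) and 1397 of 2904 in the WT list (48.1%, interval 46.3 to 49.9) lay between genes. The difference, K17KO minus WT, was -14.3 percentage points by Fisher's exact test (p = 4.963e-16, adjusted p = 2.481e-15, odds ratio 0.552). Positions that meet the rule make up 56.6% of the span of these chromosomes. The lists differ in depth and threshold too, with medians of 10 fragments and a −log10 q of 2.69 for the K17KO peaks between genes against 7 fragments and 1.02 for the WT ones, and each genotype is 1 list, so genotype and list cannot be told apart.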

How the data were processed

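The 3 peak lists were analysed as deposited. Bowtie2 2.2.5, SAMtools 1.7, MACS2 2.1.2 and build mm10 are named in the submitters' processing notes. The control and the cutoff for a peak are not stated there. Fold enrichment is the authors' ratio of fragments to background. Each −log10 p and −log10 q was deposited by the authors with its peak, and the deposited score was not used.

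Fragments and background were recovered from each peak's fold (fragments plus 1, divided by background plus 1) and its Poisson p. Whole fragments matched both in 100% of K17KO peaks, within 0.001 in −log10 p. Genes came from RefSeq GRCm38.p6, which shares mm10 coordinates and was used without strand or exons. Overlap meant at least 1 bp. Shares have exact Clopper-Pearson 95% intervals. The 5 planned comparisons used Fisher's exact test (two-sided, scipy 1.17.1) with Benjamini-Hochberg adjustment at 0.05. Neighbouring peaks count as independent in these tests. The test of H3K4me3 overlap against other K17KO peaks is not given, since the choice of peaks leaves out coding gene starts. It stays among the 5 tests of the adjustment, which can lower the adjusted p of tests with a higher p.

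The code was checked on simulated peaks: all 200 planted peaks between genes and all 200 planted overlaps were recovered among 1101 peaks. The planted peaks were drawn by the same rule that then placed them, so this is a check of the code only. Named peaks are those in another list, the 12 of highest fold, the 6 of highest −log10 p, those within 5 kb of a microRNA or 1 kb of another noncoding gene end (10 by fold), the 3 farthest, those at the 5 kb limit, close pairs, the 6 of highest background, and neighbours of 4 gene lists (p53 targets, noncoding p53 targets, DNA repair, epidermis and hair), of which those within 50 kb were chosen after their values were seen. The peaks and lists were chosen with earlier results of these data known. The planned p53 motif search was limited to 2 promoter windows, since no genome was used here.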

Additional observations from a re-analysis of the deposited data

Results flagged for a closer look

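The share of p53 peaks between genes differed between the lists by a test of the difference itself: K17KO minus WT was -14.3 percentage points (Fisher's exact adjusted p = 2.481e-15). It kept this direction with both lists limited to q-values of at most 0.01 (-17.3 points) and without peaks of background over 10 fragments (-15.0 points). The q-value limit left 793 K17KO and 359 WT peaks and does not make the lists equal in depth. Genotype and list cannot be told apart here, and the p-value covers the counting of peaks only.

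Peaks of all lists also lay outside the placed chromosomes. The K17KO p53 list held 12 peaks on 1 unplaced scaffold, where the WT p53 and H3K4me3 lists held 2 each. The 12 had 152 to 547 fragments over backgrounds of 88.9 to 430, and folds of 1.22 to 1.7. The WT p53 peaks there had backgrounds of 256 to 262 and folds of 1.21 to 1.32. The H3K4me3 peaks there had backgrounds of 122 to 220 and folds of 1.58 to 1.64. The cause of the difference in number was not tested.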

How the results depend on the processing

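The lower share between genes (-17.3 to -10.4 points over 7 alternatives) and the uncalled difference at noncoding genes (2.01 to 4.78 points over 7) kept direction and side of the threshold. The H3K4me3 difference from WT peaks between genes passed with a limit of 1 kb from gene ends (1.15 points, Fisher's exact adjusted p = 0.0235) and with H3K4me3 peaks limited to q-values up to 0.01 (1.07 points, adjusted p = 0.0384), and turned to -0.345 points with p53 peaks so limited. This H3K4me3 difference did not pass without peaks of background over 10 fragments (0.645 points, 3 of 348 against 3 of 1385, Fisher's exact adjusted p = 0.166). Over 20 kb from gene ends it did not pass either (0.432 points, Fisher's exact adjusted p = 0.379). Over its 9 alternatives the adjusted p ran from 0.0235 to 1. The uncalled difference in WT p53 overlap turned to -0.131 points over 20 kb from gene ends, to -0.362 among the 50% of peaks with the highest folds, to -0.00222 with an overlap of at least 50% of the peak and to -0.131 without peaks of background over 10 fragments. The cause of these changes was not tested. With q-values up to 0.01 the median fold was 5.11 and the median −log10 p 7.53, and among the highest folds they were 5.21 and 7.99 with a median background of 0.973, as fewer, stronger peaks remained. Leaving out high backgrounds and counting scaffold peaks were chosen after seeing the data. No paired analysis was possible because the lists name no library or replicate, and for the same reason no replicate could be left out. Depth limits single sites: 126 peaks rest on 6 to 9 fragments.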
